A study of Bos taurus with 12 samples.

Results

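The genes described here encode antioxidant and glutathione enzymes: superoxide dismutases, catalase, glutathione peroxidases, peroxiredoxins, the thioredoxin and glutathione systems, glutathione S-transferases, haem oxygenases, and the regulators NFE2L2 (NRF2) and KEAP1. They were chosen by symbol from a list of 39 genes. The rule used no measured value, but the list was drawn up with earlier results of these data known. Probe sets carrying the symbol of 35 of them were found, 44 probe sets in all, among 24016 probe sets that are not controls and 9155 named genes. GPX8, GSTP1, GSTM1 and GLRX had no probe set of that symbol and are not among the members counted here.

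Total RNA was measured on 12 one-colour microarrays, 6 of hypertrophic zone (HZ) and 6 of reserve zone (RZ) chondrocytes, in pairs numbered 1 to 6. All cells came from the growth plate at the lower end of the metacarpus, the cannon bone of the forelimb, of male dairy cattle under 10 months old, and no genetic change or drug treatment is named for either group. The cartilage of both groups was digested with Collagenase P for 4 h, and the zones were then separated by density, HZ being the lightest fraction and RZ the densest. A zone here is thus a density fraction and can hold other cells of like density, and the labels call the pairs independent without saying how many animals gave each.

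Superoxide dismutases turn superoxide into hydrogen peroxide, and catalase, the glutathione peroxidases and the peroxiredoxins then remove the peroxide. Glutathione reductase and the thioredoxin reductases return the used thiols to their reduced form with NADPH, and glutathione S-transferases couple glutathione to reactive compounds. NRF2 is the transcription factor that switches on many of these genes, KEAP1 targets it for destruction, and reactive oxygen species are known to promote the passage of growth plate chondrocytes from proliferation to hypertrophy.

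The fractions carried most of the markers of their labels. Of 8 hypertrophic zone markers 5 were higher in HZ (MMP13, IHH, ALPL, PTH1R and MEF2C) and none lower. COL10A1, SPP1 and IBSP did not pass, and the differences of all 8 were positive, the smallest at 0.11. Of 5 reserve zone markers 4 were lower (SFRP5, PTHLH, APOE and CLU). GDF5 did not pass and pointed the other way, at 0.19. The cartilage genes COL2A1 and ACAN differed by 0.15 and 0.13 on the log2 scale, neither passing the test. Of 9 granulocyte, 9 endothelial, 4 osteoblast, 8 fibrous tissue and 6 fat cell markers, CATHL1, PECAM1 and PDGFRA fell and none rose (limma). At an unadjusted p under 0.05, 9 of the 34 genes in these lists were lower in HZ and 2 higher, where 12.6% and 12.4% of all genes were. The median log2 difference was -0.74 for the granulocyte and -1.02 for the osteoblast markers. The part of these cell types in the results on the antioxidant genes was not tested. The step between deposited values was larger on arrays of pairs 1 and 2 (0.0237 to 0.0318) than on those of pairs 3 to 6 (0.00884 to 0.0110). If a step is the same amount of signal on every array, which no source states, pairs 1 and 2 were dimmer before scaling. Their median signals would be 41.5 to 55.6, against 120 to 149. Values within each set of pairs are therefore given where they differ. The log2 ratio of 3′ over 5′ probe sets, a sign of RNA quality, was higher in HZ than in RZ in 6 of 6 pairs for actin (HZ 2.08 to 3.58, RZ 1.63 to 2.58) and in 5 of 6 for GAPDH, where HZ-3 and HZ-4 stood highest at 1.46 and 1.20. With nothing added to the signal actin was higher in 5 of 6 pairs. EF1A went the other way, higher in HZ in 1 of 6 pairs (mean -2.49 in HZ and -2.26 in RZ).

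Most antioxidant genes did not pass the test between the zones, and 3 of them rose in HZ. Haem oxygenase 1 (HMOX1) was 2.78-fold higher, catalase (CAT) 1.95-fold higher and peroxiredoxin 6 (PRDX6) 1.88-fold higher in HZ. A gene was represented by its brightest probe set, and rose or fell here means an adjusted p under 0.05 from limma on log2(signal + 16), with the pair as a block and Benjamini-Hochberg adjustment over all probe sets. Of the 35 measured genes 3 rose (8.57%), against 4.17% of all 9155 genes. None fell, against 3.56% of all genes, and 4 (PRDX4, PRDX2, GPX7 and GSR; 11.4%) were lower at an unadjusted p under 0.05, where 12.6% of all genes were. The members were mostly bright, with 32 at or above the median level of all probe sets, and of the 6250 genes at that level 4.93% rose and 4.51% fell.

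By probe set, 3 of 44 rose (6.82%), against 3.26% of all, and none fell, against 2.96%. At an unadjusted p under 0.05, 11 members were higher in HZ (31.4%), where 12.4% of all genes were. That share of all genes includes dim genes, whereas most members were bright, and no share of bright genes alone is given at this threshold. The median log2 difference, HZ minus RZ, was 0.16 over the members and -0.01 over all genes, with 23 members positive and 12 negative. Within pairs 1 and 2 the members' median was 0.05 and within pairs 3 to 6 it was 0.28, against -0.055 and 0.009 over all genes. Because the arrays hold RNA of whole fractions, a larger share of cells that express a gene and more of its RNA in each cell cannot be told apart.

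**Figure D1:**
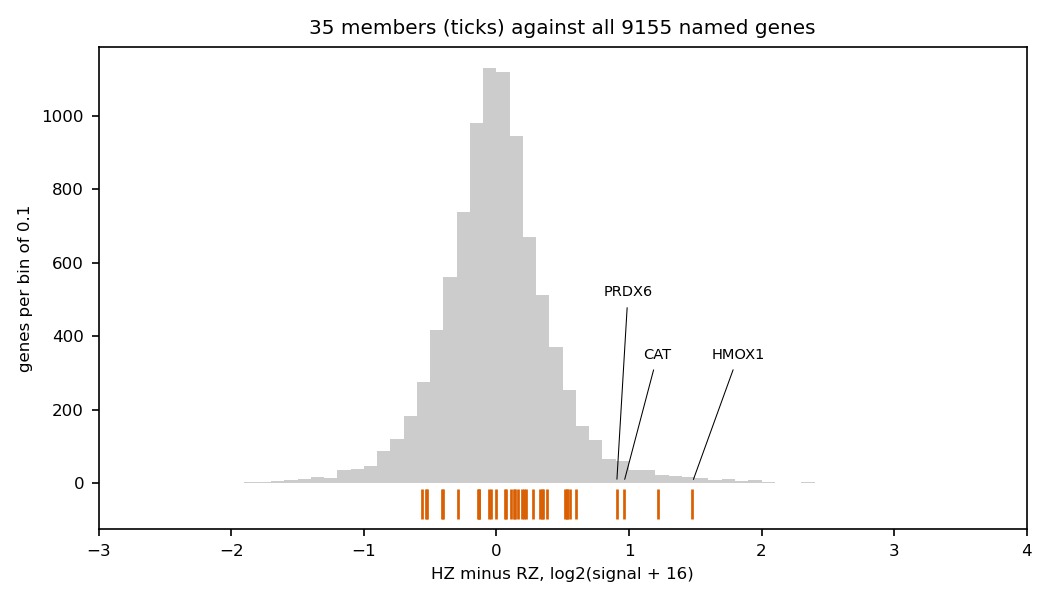
Histogram of the log2 difference (HZ minus RZ) over all 9155 genes by their brightest probe set, with the 35 antioxidant and glutathione genes as ticks under the axis and the 3 that rose named. Most ticks lie near 0, around a median of 0.16, and those of HMOX1 (1.48), GPX3 (1.22), CAT (0.96) and PRDX6 (0.91) lie farthest to the right.

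The same sign in all 6 pairs was found for 10 members. HMOX1, CAT, PRDX6, SRXN1, TXN2, GCLM, MGST1 and MGST3 were higher in HZ in every pair (8 genes, 22.9%, against 8.6% of all genes), and PRDX2 and GPX7 were lower in every pair (2 genes, 5.71%, against 8.27%). Every HZ array lay above every RZ array for HMOX1, CAT and PRDX6 (8.57%, against 2.44% of all genes). For PRDX2 every RZ array lay above every HZ array (2.86%, against 1.42%). These shares of all genes also include dim genes, whereas most members were bright.

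**Figure D2:**
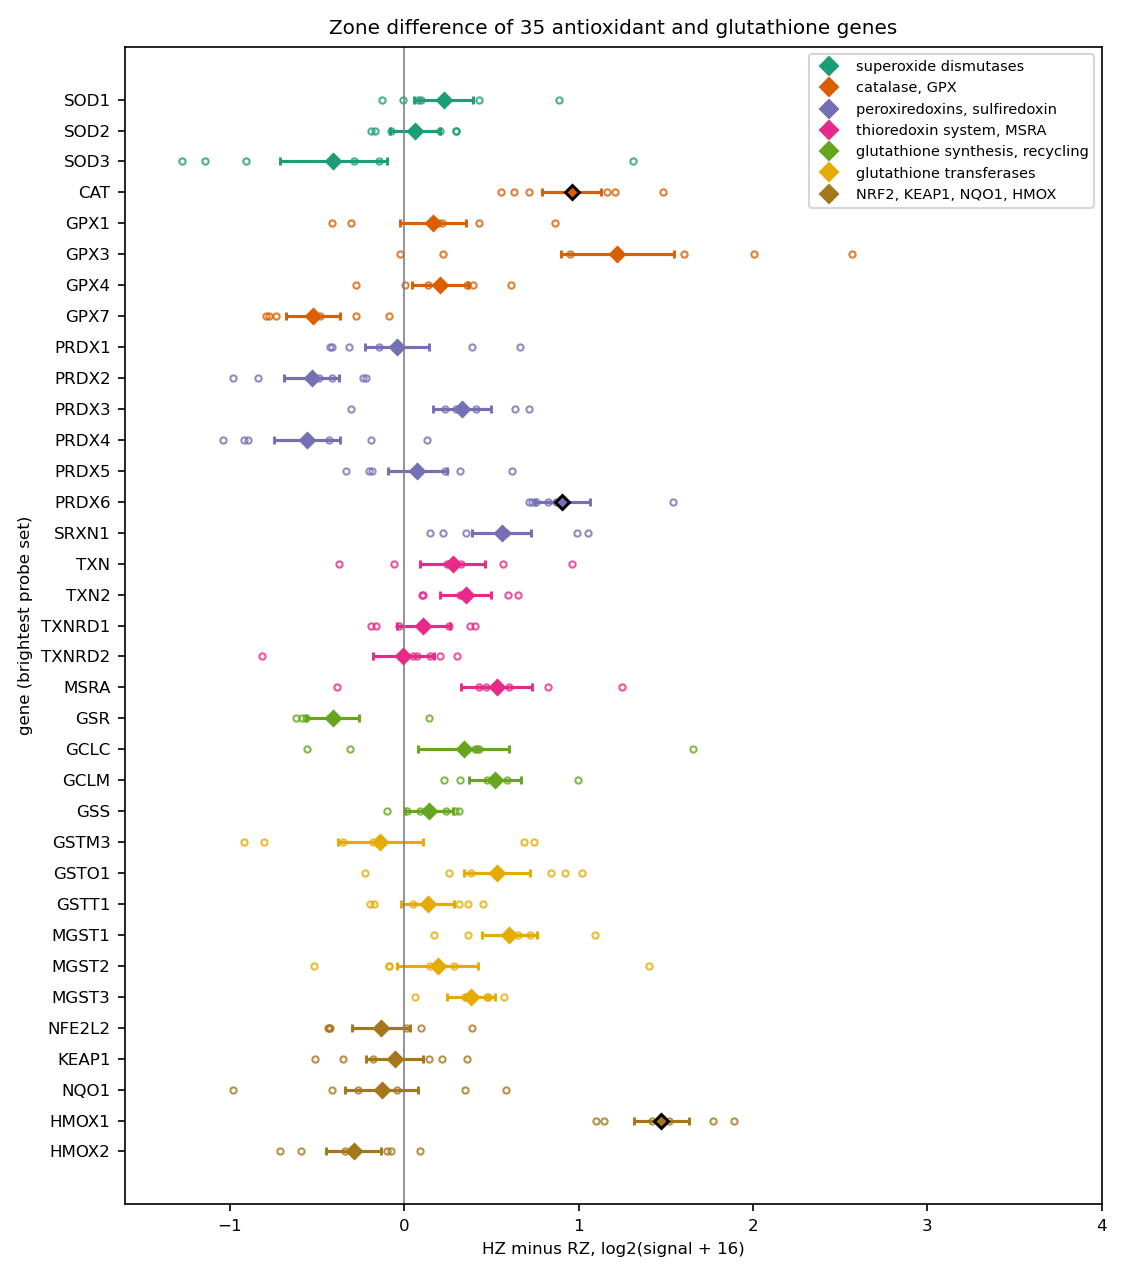
Log2 difference (HZ minus RZ) of each of the 35 measured genes by its brightest probe set, coloured by enzyme family, with the 6 pairs as open circles and the fitted mean with its standard error as a diamond and bar. A black outline marks HMOX1 (1.48), CAT (0.96) and PRDX6 (0.91), which passed the test, and the other 32 have none.

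The superoxide dismutases showed no change past the test, 0 of 3, and none at an unadjusted p under 0.05 (limma). Here and below, a count of 0 in so few genes says little, as 4.17% of all genes rose and 3.56% fell. SOD1, the copper and zinc enzyme of the cytosol, differed by 0.23 ± 0.17 (log2, SE of the limma fit), and SOD2, the manganese enzyme of mitochondria, by 0.06 ± 0.14. SOD2 signal ran from 8751 to 13920.2 in HZ and from 8966 to 14630.3 in RZ, with the groups overlapping throughout. SOD3, the secreted enzyme, was read by a pair of dim probe sets that differed in sign, -0.41 ± 0.31 for the brighter and 0.26 ± 0.24 for the other.

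Among the enzymes that remove hydrogen peroxide, catalase, the haem enzyme of peroxisomes, rose. CAT signal had a lowest value of 752, a median of 999 and a highest value of 1333 on the HZ arrays, and 399, 529.6 and 700.4 on the RZ arrays. The lowest HZ array was above the highest RZ array. The log2 difference was 0.96 ± 0.17 (adjusted p = 0.0124, n = 6 pairs, limma), positive in 6 of 6 pairs from 0.55 in pair 2 to 1.49 in pair 3. It was 0.86 within pairs 1 and 2 and 1.01 within pairs 3 to 6, where the adjusted p rose to 0.0732 with 4 pairs, and without pairs 3 and 4 it was 0.89 (adjusted p = 0.0793).

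Of the 4 glutathione peroxidases measured, none passed (limma). At an unadjusted p under 0.05 GPX3 was higher and GPX7 lower, where 12.4% and 12.6% of all genes were. GPX3, the secreted selenium enzyme of plasma and extracellular matrix, had the second largest difference among the members, 1.22 ± 0.32 (2.33-fold, adjusted p = 0.0564). Its signal had a lowest value of 475, a median of 2314 and a highest of 4265 in HZ, against 304, 969.5 and 1843 in RZ. The ranges overlapped and the pairs disagreed: the log2 difference was 2.57 in pair 1, 0.22 in pair 2, -0.03 in pair 3, 1.61 in pair 4, 0.95 in pair 5 and 2.01 in pair 6. Without pair 3 GPX3 passed the test, at 1.47 (adjusted p = 0.0374).

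GPX7, a peroxidase of the endoplasmic reticulum without selenium, had a lowest value of 271, a median of 393 and a highest of 478 in HZ, and 462, 549.8 and 672 in RZ. It was lower in HZ in all 6 pairs, by 0.08 to 0.79 in size, and the groups met only at their edges. The fitted difference was -0.52 ± 0.15 (adjusted p = 0.0791). GPX4, which reduces lipid peroxides in membranes, differed by 0.21 ± 0.16. GPX1, the main peroxidase of the cytosol, differed by 0.16 ± 0.19, with -0.36 within pairs 1 and 2 and 0.43 within pairs 3 to 6. It was the only member probe set of 44 (2.27%) whose difference between the sets of pairs had an unadjusted p under 0.05 by limma, where 5.03% of all probe sets did. After adjustment 0 of the 44 did, against 0.00833% of all.

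**Figure D3:**
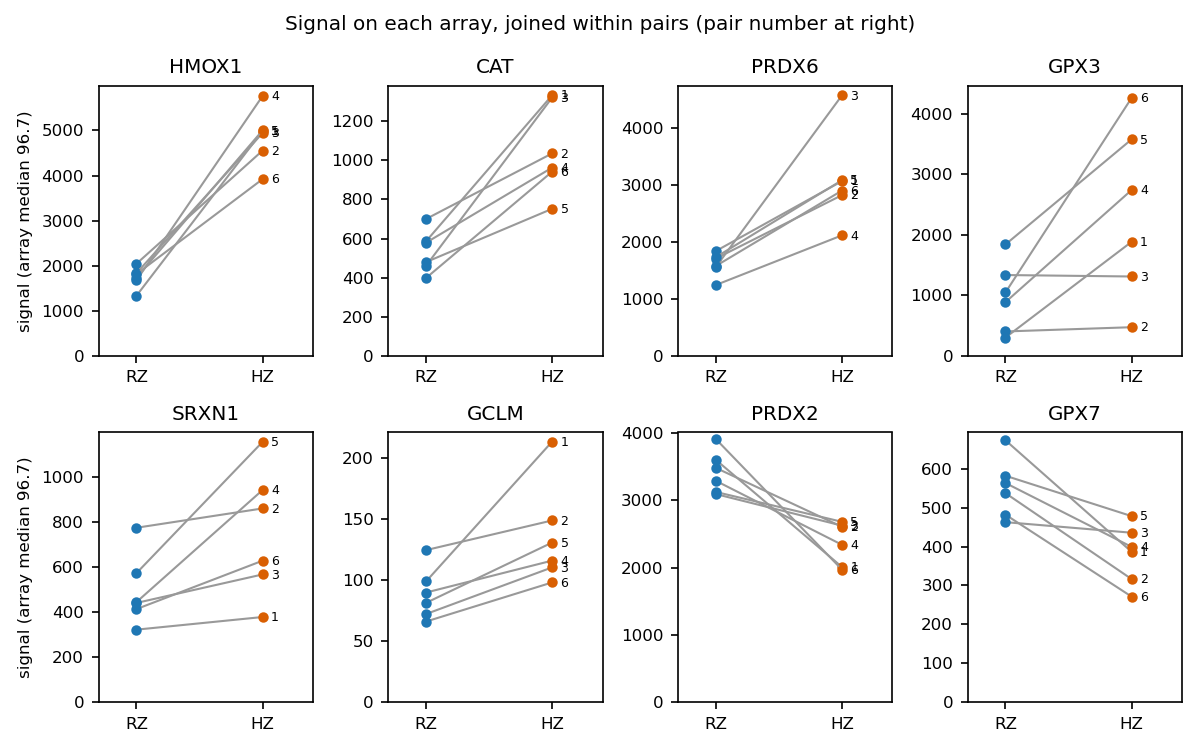
Signal (linear axis from 0, in units where the array median is 96.7) on the RZ and HZ arrays for 8 members by their brightest probe set, with a line joining the arrays of 1 pair. Lines for HMOX1, CAT and PRDX6 climb in 6 of 6 pairs without overlap of the zones, those of PRDX2 and GPX7 go down in 6 of 6, and the GPX3 lines of pairs 2 and 3 are nearly flat.

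The 6 peroxiredoxins did not move together. PRDX6, the peroxiredoxin that uses glutathione and also reduces phospholipid peroxides, rose. Its brightest probe set read 2114 at the lowest, 2981 at the median and 4567 at the highest in HZ, and 1243, 1642 and 1839 in RZ, with no overlap. The log2 difference was 0.91 ± 0.16 (adjusted p = 0.0121), from 0.72 in pair 2 to 1.54 in pair 3.

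Other probe sets of PRDX6 read less. The next brightest was higher in HZ in 6 of 6 pairs, at 0.53 ± 0.16 (adjusted p = 0.0885), and the remaining 2 differed by 0.03 ± 0.16 and -0.04 ± 0.23, the last of them dim. Averaged over all its probe sets PRDX6 no longer passed, at 0.36 (adjusted p = 0.166). Within pairs 3 to 6 the brightest probe set gave 0.999 (adjusted p = 0.0687), and without pairs 3 and 4 it gave 0.79 (adjusted p = 0.0678).

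PRDX2, an abundant peroxiredoxin of the cytosol and of red cells, pointed the other way. It read 1972 at the lowest, 2473 at the median and 2680.2 at the highest in HZ, and 3092, 3384 and 3908 in RZ. All 6 HZ arrays lay below all 6 RZ arrays, yet the difference of -0.53 ± 0.16 did not pass over all probe sets (adjusted p = 0.0811). Red cell markers, 9 measured, showed 0 changes by limma (0 at an unadjusted p under 0.05 as well), with a median of 0.01 and a summed signal of 246 to 480.5 in HZ and 292 to 491 in RZ. The part of red cells in the PRDX2 difference was not tested.

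PRDX4, the peroxiredoxin of the endoplasmic reticulum, read 2331, 3602 and 5856 (lowest, median, highest) in HZ and 4597, 5075 and 6835 in RZ. It was lower in HZ in 5 of 6 pairs, pair 3 being the exception at 0.13, and the difference was -0.56 ± 0.19 (adjusted p = 0.115). PRDX1 of the cytosol differed by -0.04 ± 0.19 and PRDX5, found in several compartments, by 0.08 ± 0.17. The mitochondrial PRDX3 differed by 0.33 ± 0.17 in its brightest probe set and by -0.09 ± 0.15 in the other.

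By the brightest probe sets, the log2 difference of PRDX6 was greater in each of the 6 pairs than that of every other peroxiredoxin. The mean gap was 0.58 ± 0.33 to PRDX3, 0.83 ± 0.26 to PRDX5, 0.95 ± 0.29 to PRDX1, 1.44 ± 0.34 to PRDX2 and 1.47 ± 0.33 to PRDX4 (SD, n = 6 pairs). PRDX6 was taken for these gaps because it had passed, so they are given without a test. The order depended on the probe set. In pair 4 the next brightest PRDX6 probe set gave 0.10, below 0.41 for PRDX3 and 0.24 for PRDX5. SRXN1, sulfiredoxin, which repairs overoxidised peroxiredoxins, was higher in HZ in every pair but by 0.15 to 1.05, and its difference of 0.56 ± 0.17 did not pass (adjusted p = 0.0885). SRXN1 signal ran from 379 to 1155 in HZ and from 323 to 774 in RZ.

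**Figure D4:**
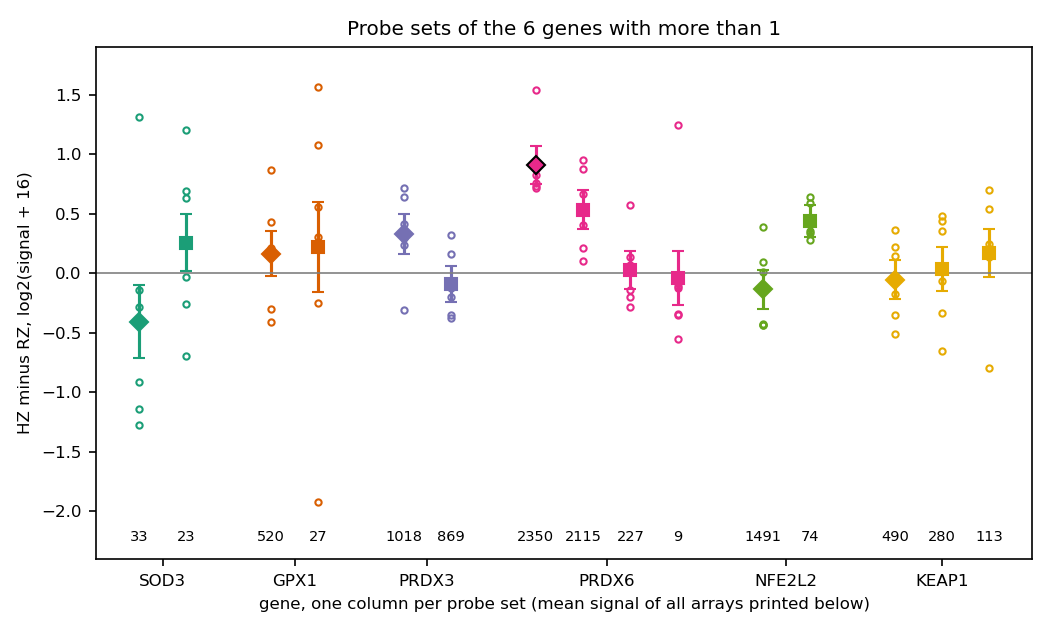
Log2 difference (HZ minus RZ) for each probe set of the 6 members that have several, with the fitted mean and standard error, the 6 pairs as open circles and the mean signal printed below; a diamond marks the brightest probe set and a black outline the one that passed. The PRDX6 probe sets go from 0.91 at the brightest to -0.04 at the dimmest, and the NFE2L2 probe sets lie at -0.13 and 0.44.

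The thioredoxin system showed no change past the test (0 of 5, limma). TXN2 and MSRA were higher at an unadjusted p under 0.05, 2 of 5 genes, where 12.4% of all genes were. TXN2, the thioredoxin of mitochondria, was higher in HZ in 6 of 6 pairs by 0.10 to 0.65, with 391 to 629 in HZ and 362 to 584 in RZ. Its difference was 0.35 ± 0.15 (adjusted p = 0.189). MSRA, which reduces oxidised methionine, differed by 0.53 ± 0.20 (adjusted p = 0.159) and was higher in HZ in 5 of 6 pairs, with -0.39 in pair 2.

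TXN, the thioredoxin of the cytosol, differed by 0.28 ± 0.19, and TXNRD1, the reductase that recharges it, by 0.11 ± 0.15. TXNRD1 signal was 8272 to 15901 in HZ and 8743 to 15725 in RZ, so the zones covered the same range. TXNRD2, the mitochondrial reductase, was dim in both zones (means of 37.2 and 36.4) below the array median of 96.7, and differed by -0.00 ± 0.17.

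Glutathione synthesis and recycling showed no change past the test either (0 of 4, limma). At an unadjusted p under 0.05 GCLM was higher and GSR lower, where 12.4% and 12.6% of all genes were. GCLM, the subunit that makes glutamate-cysteine ligase more efficient, was higher in HZ in all 6 pairs, with 98.1, 123 and 213 (lowest, median, highest) in HZ and 66.1, 85.6 and 124 in RZ. Its difference was 0.52 ± 0.15 (adjusted p = 0.0733) and the ranges overlapped. GCLC, the catalytic subunit of the same enzyme, differed by 0.34 ± 0.26, from -0.56 in pair 5 to 1.66 in pair 6. GSS, which completes glutathione, differed by 0.14 ± 0.14. GSR, which returns oxidised glutathione to its reduced form, was lower in HZ in 5 of 6 pairs, at -0.41 ± 0.15 (adjusted p = 0.149), the only one of the 4 with a negative difference.

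Of the 6 glutathione S-transferases measured none passed (limma), and 5 differences were positive. MGST1, GSTO1 and MGST3 were higher at an unadjusted p under 0.05, 3 of 6 genes, where 12.4% of all genes were. MGST1, a transferase of the endoplasmic reticulum and mitochondrial membranes, was higher in HZ in every pair by 0.17 to 1.09. Its signal varied widely between arrays, from 22.9 to 157 in HZ and from 8.76 to 89.1 in RZ. The difference was 0.60 ± 0.16 (adjusted p = 0.0543). At this dim signal its size depended on the constant added, from 0.33 with 64 added to 0.90 for the deposited ratio, and MGST1 passed under quantile normalization (0.61, adjusted p = 0.0456).

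MGST3, a related membrane enzyme, was higher in HZ in 6 of 6 pairs, at 0.38 ± 0.14 (adjusted p = 0.14), with 594 to 760.4 in HZ and 395 to 723 in RZ. GSTO1, which also reduces dehydroascorbate, was higher in 5 of 6 pairs, at 0.53 ± 0.19 (adjusted p = 0.134), with pair 2 at -0.23. MGST2, GSTT1 and GSTM3 differed by 0.19 ± 0.23, 0.14 ± 0.15 and -0.14 ± 0.24. GSTM3 ran from -0.92 in pair 6 to 0.74 in pair 3, so its pairs had no common direction. Probe sets under other symbols that have GSTP1 (-0.09 ± 0.17) or GSTM1 (0.05 ± 0.16 and -0.08 ± 0.33) as a synonym were not counted, and none passed.

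HMOX1, the inducible haem oxygenase, which breaks haem into biliverdin, iron and carbon monoxide, had the largest difference of all members. It read 3920.4 at the lowest, 4967 at the median and 5764 at the highest in HZ, and 1335, 1777 and 2045 in RZ. The lowest HZ array lay well above the highest RZ array. The mean was 4862 ± 606 over the 6 HZ arrays and 1741 ± 235 over the 6 RZ arrays (SD), a log2 difference of 1.48 ± 0.16 (adjusted p = 0.00175, limma).

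The HMOX1 difference was 1.89, 1.15, 1.42, 1.77, 1.52 and 1.10 in pairs 1 to 6, with 1.52 within pairs 1 and 2 and 1.45 within pairs 3 to 6. Leaving out each pair in turn kept it between 1.39 and 1.55, with adjusted p from 0.00368 to 0.0105. HMOX2, the constitutive haem oxygenase, differed by -0.29 ± 0.16 (adjusted p = 0.323), with 530 to 1159 in HZ and 676 to 1241 in RZ. The gap between the 2 genes' differences was 1.76 ± 0.46 (SD, n = 6), positive in every pair. HMOX1 was taken for this gap because it had passed, so the gap is given without a test.

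The next enzyme of haem breakdown moved the same way. BLVRA, which turns biliverdin into bilirubin, rose by 0.87 ± 0.17 (adjusted p = 0.0187), from 247 to 349 in RZ to 435.5 to 879.7 in HZ with no overlap. BLVRB, a second such enzyme, was dim and differed by -0.32 ± 0.19 (adjusted p = 0.363). The ferritin chains that store iron, FTH1 and FTL, differed by 0.16 ± 0.16 and 0.33 ± 0.15, neither passing. SLC39A8, a zinc and iron importer, rose by 1.27 ± 0.27 (adjusted p = 0.0243), and SLC11A2, which carries iron out of endosomes, fell by 0.56 ± 0.14 (adjusted p = 0.0463).

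HMOX1 is also highly expressed by macrophages, and some of their markers moved with it. Of 10 macrophage markers 5 rose in HZ (AIF1 by 1.99 ± 0.18, C1QA by 1.95 ± 0.39, C1QC by 1.80 ± 0.29, C1QB by 1.64 ± 0.24 and CSF1R by 1.03 ± 0.22, adjusted p 0.00112 to 0.0279), and none fell by the brightest probe set, CD14 being lower at an unadjusted p under 0.05. CD68 differed by 0.14 ± 0.14 and CD14 by -0.81 ± 0.26 (adjusted p = 0.103), a second CD14 probe set falling by 1.02 (adjusted p = 0.0254). The summed signal of the 10 markers was 1457 to 3398 in HZ and 1085 to 2430 in RZ, and none was at 0 on any array, although MSR1, C1QC, AIF1 and TYROBP read as little as 2.59, 3.21, 1.82 and 1.68 on an RZ array. The markers' part in the HMOX1 result was not tested. Of 3 osteoclast markers ACP5 and CTSK rose, with a summed signal of 7121 to 9874 in HZ and 2291 to 5476 in RZ, and their part was not tested either.

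**Figure D5:**
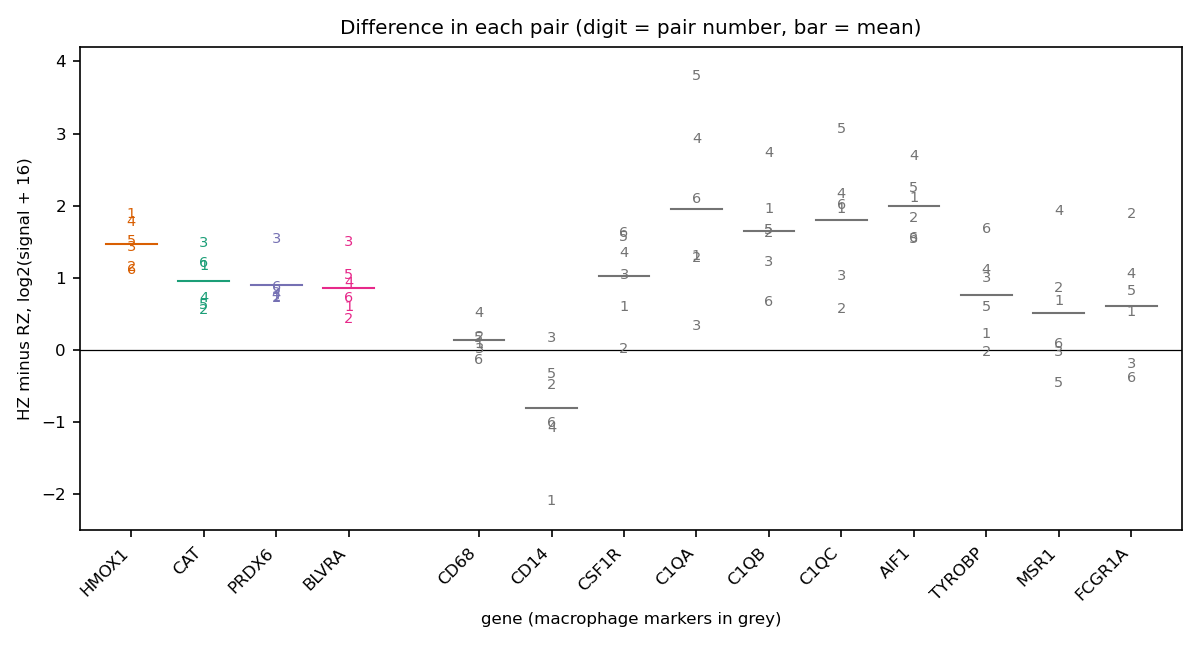
Log2 difference (HZ minus RZ) in each of the 6 pairs (digits are pair numbers, bars the means) for HMOX1, CAT, PRDX6 and BLVRA, beside the 10 macrophage markers in grey. HMOX1 stays between 1.10 and 1.89 over the pairs, and the 10 markers run from -2.09 (CD14, pair 1) to 3.80 (C1QA, pair 5).

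The regulators themselves did not pass. NFE2L2 differed by -0.13 ± 0.16 (adjusted p = 0.703) in its brightest probe set, with a median of 1338 in HZ and 1550.2 in RZ. Its dimmer probe set was higher in HZ in 6 of 6 pairs, from 75.5 to 95.5 in HZ against 46.9 to 72.4 in RZ, at 0.44 ± 0.14 (adjusted p = 0.0906), so the probe sets disagreed. KEAP1 differed by -0.05 ± 0.16, and by 0.04 ± 0.19 and 0.17 ± 0.20 in its other probe sets. NQO1, the quinone reductase widely used as a readout of NRF2, differed by -0.13 ± 0.21, with a mean and SD of 206 ± 120.5 over the HZ arrays and 207 ± 69.5 over the RZ arrays.

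Grouped by regulator, 9 members were listed as widely known NRF2 targets (HMOX1, NQO1, GCLC, GCLM, TXNRD1, SRXN1, GSR, PRDX1 and TXN). Of these 1 rose, HMOX1 (11.1%, against 4.17% of all genes). The 9 had a median difference of 0.28, with 6 positive and 3 negative, against -0.01 over all genes. CAT and PRDX6, which also rose, were not on this list, and the list was drawn up with earlier results of these data known. Grouped by place in the cell, 4 members listed as mitochondrial (SOD2, PRDX3, TXN2 and TXNRD2) had a median of 0.20 and none passed (limma, 1 at an unadjusted p under 0.05). Members found in other compartments as well, such as MGST1 (0.60) and PRDX5 (0.08), were left out of this group. Of 4 members that are secreted or act in the endoplasmic reticulum lumen SOD3, GPX7 and PRDX4 were negative and GPX3 was positive at 1.22, with a median of -0.46. Enzymes of the endoplasmic reticulum membrane, such as MGST1 (0.60) and HMOX1 (1.48), are not among these 4. The 5 selenoproteins (GPX1, GPX3, GPX4, TXNRD1 and TXNRD2) had a median of 0.16 and none passed, with GPX3 alone under an unadjusted p of 0.05. Over all genes 12.4% were higher and 12.6% lower at that threshold.

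Pair by pair, the members' median difference was 0.17 in pair 1, -0.23 in pair 2, 0.41 in pair 3, 0.25 in pair 4, 0.37 in pair 5 and 0.15 in pair 6. Over all genes it was 0.02, -0.13, 0.18, -0.09, 0.04 and -0.07. Pair 2 was the only pair with more negative than positive members, 23 against 12, and pair 5 had the most positive, 29 against 6. The SD of the pair differences had a median of 0.365 over the members and 0.415 over all genes.

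Related genes outside the list carried some of the larger differences of the pathway. TXNDC17, a small thioredoxin-like protein of the cytosol, rose by 1.76 ± 0.21 (adjusted p = 0.00275), from a mean of 1397 ± 338 in RZ to 4824 ± 1285 in HZ, with no overlap. It was 1 of 18 other antioxidant and thiol genes, of which PON3, a lactonase, also rose (0.89 ± 0.20, adjusted p = 0.0303) and SESN2, a stress-induced sestrin, fell (-0.97 ± 0.15, adjusted p = 0.00774). Of the 18, 11.1% rose, against 4.17% of all genes, and 1 fell, where 3.56% of all genes did. The 18 had a median difference of 0.32. TXNL1, a thioredoxin-like protein, and OXR1, an oxidation resistance protein, did not pass by their brightest probe set but fell by 0.95 and 1.45 in a dimmer one (adjusted p at most 0.0455).

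SELENOP, the secreted protein that carries selenium between tissues, rose by 1.89 ± 0.15 (adjusted p = 0.000615), from 274 ± 143 in RZ to 1052 ± 447 in HZ, higher in 6 of 6 pairs. It was the 1 gene of 14 for selenium handling and other selenoproteins to pass (7.14% higher, against 4.17% of all genes), and the 14 had a median of -0.10. Among 13 genes of glutathione transfer and turnover outside the list, SLC3A2, the heavy chain shared by the cystine importer and other amino acid carriers, fell by 0.93 ± 0.14 (adjusted p = 0.00734). It was the 1 gene of the 13 to pass, where 3.56% of all genes fell, and the median was -0.17.

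Of 12 NADPH-forming enzymes ME3, a mitochondrial malic enzyme, rose by 0.85 ± 0.16 (adjusted p = 0.0162), while ME1, the malic enzyme of the cytosol and a known NRF2 target, fell by 0.84 ± 0.21 (adjusted p = 0.0444) and MTHFD2, of mitochondrial folate metabolism, fell by 0.69 ± 0.18 (adjusted p = 0.0491). Of the 12, 1 rose (8.33%, against 4.17% of all genes) and 2 fell, where 3.56% of all genes did. Of 17 other NRF2 targets and partners BLVRA rose (5.88%) and ME1 fell, with a median of -0.05. Of 13 enzymes that form reactive oxygen species CYBA, a subunit of the phagocyte oxidase that macrophages express, rose by 1.45 ± 0.31 (adjusted p = 0.0277). That is 7.69%, against 4.17% of all genes. The 13 had a median of 0.43, against -0.01 over all genes, with 11 positive and 2 negative. At an unadjusted p under 0.05 (limma) 7 were higher and 1 lower, where 12.4% and 12.6% of all genes were. In all 6 pairs 6 of the 13 were higher in HZ, where 8.6% of all genes were. NOS2, the inducible nitric oxide synthase, differed by -0.48 ± 0.17 in its brightest probe set (adjusted p = 0.131) and fell by 1.38 ± 0.23 in a dimmer one (adjusted p = 0.0106).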

How the data were processed

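The authors deposited linear ratios, 1 per probe set and array; by their pattern, signal scaled per array was divided by the probe set's median of the 12 arrays, or by 1 fixed value for 2227 dim probe sets. The sources used here do not give the scanner software, the probe summary or the normalization. Signals were recovered from the whole-number steps of the ratios, with 1 step assumed to equal 0.1 units of signal (stated in no source); the planned design had assumed intensities. Log2(signal + 16) of 24016 probe sets was fitted with limma 3.58.1 in R 4.3.3 (lmFit, eBayes, pair as a block, 5 residual degrees of freedom, Benjamini-Hochberg, threshold 0.05), after the recovery and the fit were tested on simulated data. Fold changes are on that scale and understate dim genes. Same-numbered arrays deviated together (correlations of 0.124 to 0.447, all above 0.1), and the numbers given in the labels were taken as pairs. HZ-3, with the lowest correlation (0.124), was not closest to its own RZ array, whereas every other HZ array was. How far these correlations reflect the sets of arrays with larger and smaller steps, rather than true pairs, was not tested. Symbols came from the platform's annotation; 13292 probe sets had 1 symbol, 86 several and 10638 none, and 13263 matched RefSeq (ARS-UCD2.0) by Entrez identifier. Members and lists were chosen with earlier results of these data known. Every measured member is named. Of other lists, genes that passed by their brightest probe set are named, with NOS2, CD14, TXNL1 and OXR1, which passed by a dimmer one. All measured hypertrophic and reserve zone markers and the cartilage markers COL2A1 and ACAN are also named. FTH1, FTL, BLVRB, CD68, MSR1 and TYROBP were named after their values were seen. No animal is named for a pair, so p-values rest on how far the pairs vary, which may be technical, and precision is limited by the number of arrays. The eBayes step draws the variance of each probe set toward a value shared by all probe sets, so each SE and p-value reflects both. For GPX3 the SD of the pair differences was 1.02 beside an SE of 0.32. For the dimmer NFE2L2 probe set it was 0.15 beside an SE of 0.14.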

Additional observations from a re-analysis of the deposited data

Results flagged for a closer look

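Of the 70 groups of 6 arrays examined (35 genes in 2 zones), 3 held an array far from the other 5, and chance alone flags about 1 group in 20. PRDX1 read 10121.4 on HZ-3 against 4829 to 6346 on the other HZ arrays. MGST2 read 359.6 on the same array against 115 to 162. TXN2 read 584 on RZ-5 against 362 to 394 on the other RZ arrays. None of these genes passed the test between the zones. HZ-3 also had the highest GAPDH 3′ over 5′ log2 ratio, 1.46, whose part in these readings was not tested.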

How the results depend on the processing

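HMOX1, CAT and PRDX6 passed in each setting tried over all 6 pairs, apart from PRDX6 as the mean of all its probe sets (0.36), and in each fit that left out 1 pair. With 4 pairs, either pairs 3 to 6 or all but pairs 3 and 4, HMOX1 alone passed (1 gene, 1 probe set), while all probe sets gave 258 higher and 78 lower, and 91 and 48. Pairs 1 and 2 alone gave 0 calls in either direction, for members and for all probe sets.

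Leaving out 1 pair gave 334 to 650 probe sets higher and 223 to 895 lower, against 782 and 712, and 3 to 4 member genes higher, the fourth being GPX3 without pair 3. Without the replicate block 505 probe sets were higher and 326 lower, with the members' calls as before (3 and 0). With the replicate block as a random effect 2 member genes fell (GPX7 and PRDX2, 2 probe sets). With 1 added in place of 16 there were 368 and 215 calls over all probe sets, and with the deposited ratio 315 and 163, the member calls staying at HMOX1, CAT and PRDX6. With 64 added 1120 probe sets were lower, and 7 member genes (8 probe sets) rose and 2 (2 probe sets) fell. Among probe sets at or above the median level, where fewer were tested, 1374 were lower, and 7 member genes (8 probe sets) rose and 3 (3 probe sets) fell. With a variance trend 1075 were lower, and 5 member genes (6 probe sets) rose and 2 (2 probe sets) fell. Quantile normalization gave 5 member probe sets higher, MGST1 (0.61) among them, which also passed when genes were tested by the mean of their probe sets (0.60, fewer tests). GPX7 and PRDX2 fell in 4 of these settings, SRXN1 rose in 3, and GPX3 in 3 besides the fit without pair 3.

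Differences that changed sign were all of genes that did not pass. Leaving out 1 pair, NQO1 ran from -0.27 to 0.042, PRDX1 from -0.18 to 0.035, KEAP1 from -0.14 to 0.039, PRDX5 from -0.033 to 0.16, TXNRD2 from -0.066 to 0.16, MGST2 from -0.051 to 0.33 and GSTM3 from -0.31 to 0.019. Within pairs 1 and 2 GPX1 was -0.36, GPX4 -0.14, PRDX5 -0.26, TXN -0.024, TXNRD2 0.18 and MGST2 -0.30. Within pairs 3 to 6 PRDX1 was 0.078, GSTM3 0.040 and NQO1 0.064. Without pairs 3 and 4 PRDX5 was -0.10, TXNRD2 0.14, MGST2 -0.042 and KEAP1 0.053. With 64 added TXNRD2 was 0.0026, under quantile normalization SOD2 was -0.0016 and KEAP1 0.012, and as the mean of all probe sets NFE2L2 was 0.15 and KEAP1 0.052. The cause of these shifts was not tested. Signal over background limits SOD3, TXNRD2, MGST1 (0.33 with 64 added, 0.87 with 1 added, 0.90 for the deposited ratio) and the dim probe sets of GPX1 and PRDX6. GCLM and GCLC also moved with the constant, from 0.38 and 0.25 with 64 added to 0.60 and 0.39 for the deposited ratio. The dimmer NFE2L2 probe set lay below the array median of 96.7 on every array.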
